A study of Arabidopsis thaliana with 20 samples.

Results

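The genes described here are 74 Arabidopsis thaliana genes whose probes were bright on the array and whose mean level differed little between normal and low CO2. Each was read by a probe tied to exactly 1 gene. There were 692 such probes among 3439, and 642 of them had at least 6 values above 0 in each group. The members were chosen by 2 measured values, their level (the top 25% of the 642, or 161 probes) and the difference between their group means (under 0.25 on the log2 scale, or less than 1.19-fold). The rule leaves out PRK, NTRC and AT3G54210 by name, of which only PRK met both limits. The samples were 20 total RNA samples of wild-type plants of the ecotype Columbia 0. In 10 samples the plants had grown at a normal CO2 level (day 0 in the titles), and in 10 they had spent the final 96 h at 0.003% CO2 by volume (day 4). Time and CO2 level changed together and cannot be told apart. The labels give no tissue, plant age or number of plants, and they number the samples of each group 1 to 10.

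Low CO2 starves photosynthesis of its carbon source. Carbon fixation slows while chlorophyll goes on absorbing light, Rubisco takes up more oxygen, and photorespiration rises. Plants meet such conditions with changes in the photosynthetic apparatus, in antioxidant enzymes and in hormone signals. Genes with a level that differs little between conditions are useful as reference points in such experiments, provided that the spread between samples is small. The 74 genes were examined here for that spread.

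The members are mixed in function as far as the reference names them. Of the 74, 8 have a gene name and the other 66 have only a locus code. FZL, PSB27 and THIC act in the chloroplast. FZL is a membrane GTPase that shapes thylakoids, PSB27 is a protein of the thylakoid lumen that serves the assembly and repair of photosystem II, and THIC makes the pyrimidine part of thiamin. CCS delivers copper to the copper/zinc superoxide dismutases. XERICO is a small RING-type zinc finger protein linked to abscisic acid and drought tolerance. DME (DEMETER) is a DNA glycosylase that removes methylated cytosine. DRT101 is named for DNA damage repair and toleration, and the eighth is ATSIK.

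Levels are log2 intensity minus the column median, where a column is the set of values of 1 sample. They rank probes by brightness and are not amounts of transcript. The members' mean levels ran from 1.06 to 7.33 with a median of 1.68. Of the 74, 50 lay within 1 log2 unit of the brightness limit of 1.06, and 11 were above 3. The rule also fixed the differences, so these are a description. The rule difference was above 0 in 53 members and below 0 in 21, under 0.1 in size in 23, and 0.2 or more in 17. Just inside the difference limit were AT1G68660 at 0.248 and AT1G64430 at 0.243. Just outside were AT1G13990 at 0.257 and chr31 at -0.261. Just inside the brightness limit were AT1G73470 at a mean level of 1.062 and AT4G20690 at 1.059, and just outside were AT1G51080 at 1.052 and AT2G04360 at 1.047. Of the bright 1-gene probes 46.6% lay inside the limit of 0.25, and of all the dimmer ones 52.6%.

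**Figure D1:**
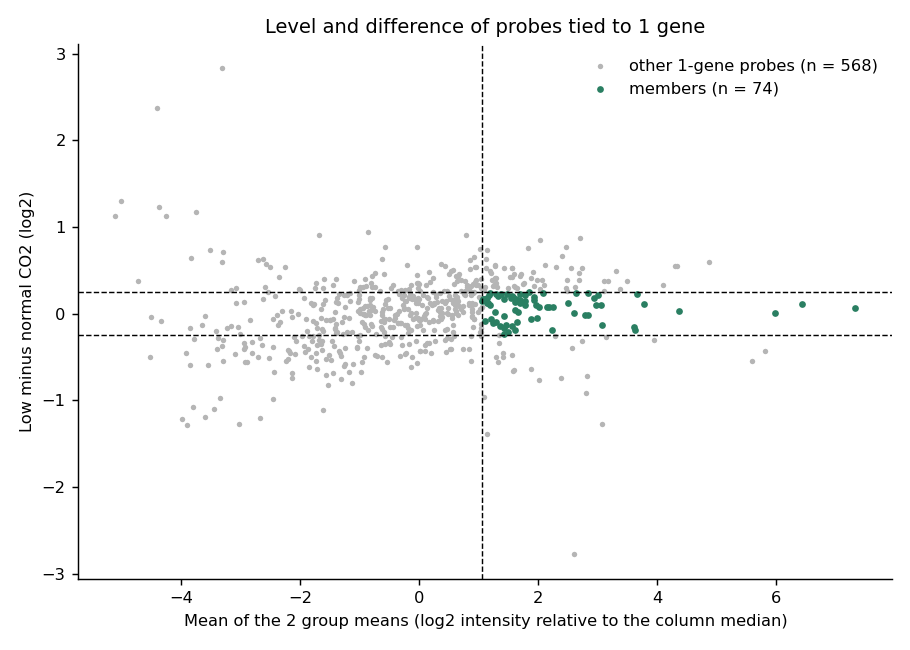
Each point is 1 of the 642 probes tied to 1 gene, with its mean level on the horizontal axis (log2 intensity relative to the column median) and its low minus normal CO2 difference on the vertical axis (log2). Dashed lines are the limits of the rule (1.06 and 0.25 in either direction), and the 74 members are the green points to the right of the first and between the others; PRK lies there too, in grey.

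Columns of neighbouring number (1 and 2, 3 and 4 and so on) deviated together, with correlations across probes of 0.30 to 0.82 (normal CO2) and 0.15 to 0.48 (low CO2), against at most 0.13 and -0.06 between other columns. Each such pair was averaged, which leaves n = 5 averaged pairs in a group. No label says that they came from separate plants, so SDs and p-values describe variation among these samples that may be technical. Precision is limited with n = 5 averaged pairs in a group. The summed intensity of a column ranged from 3495 to 3749 (normal CO2) and from 3604 to 3797 (low CO2). Over all probes, 69 of 3277 tested (2.11%) passed limma's adjusted p of 0.05 between the groups, 12 higher and 57 lower in low CO2. Of the members, 0 of 74 passed, and 0 had an unadjusted p under 0.05. The choice of members fixes these counts, and nothing is read from them.

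How far a member can be called steady depends on the interval of its difference. The members' standard errors ran from 0.13 to 0.56 with a median of 0.19, beside 0.21 in the 87 other bright 1-gene probes and 0.23 over all tested probes. The 95% interval lay within 0.5 log2 units of 0 (1.41-fold) in 23 of the 74 members and within 1 unit (2-fold) in 72. The exceptions to the latter were AT4G31530 and AT3G09850, the brightest members. In the other 51 members the interval reached past 1.41-fold in at least 1 direction. Within 0.5 and within 1 unit lay 31.1% and 97.3% of the members' intervals, beside 14.6% and 69.8% over all tested probes. In the other bright 1-gene probes the shares were 0% and 66.7%. The limit on the difference favours such intervals in the members. Selection on the difference itself makes the members' intervals a description of the measurements and not of the genes in new samples.

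**Figure D2:**
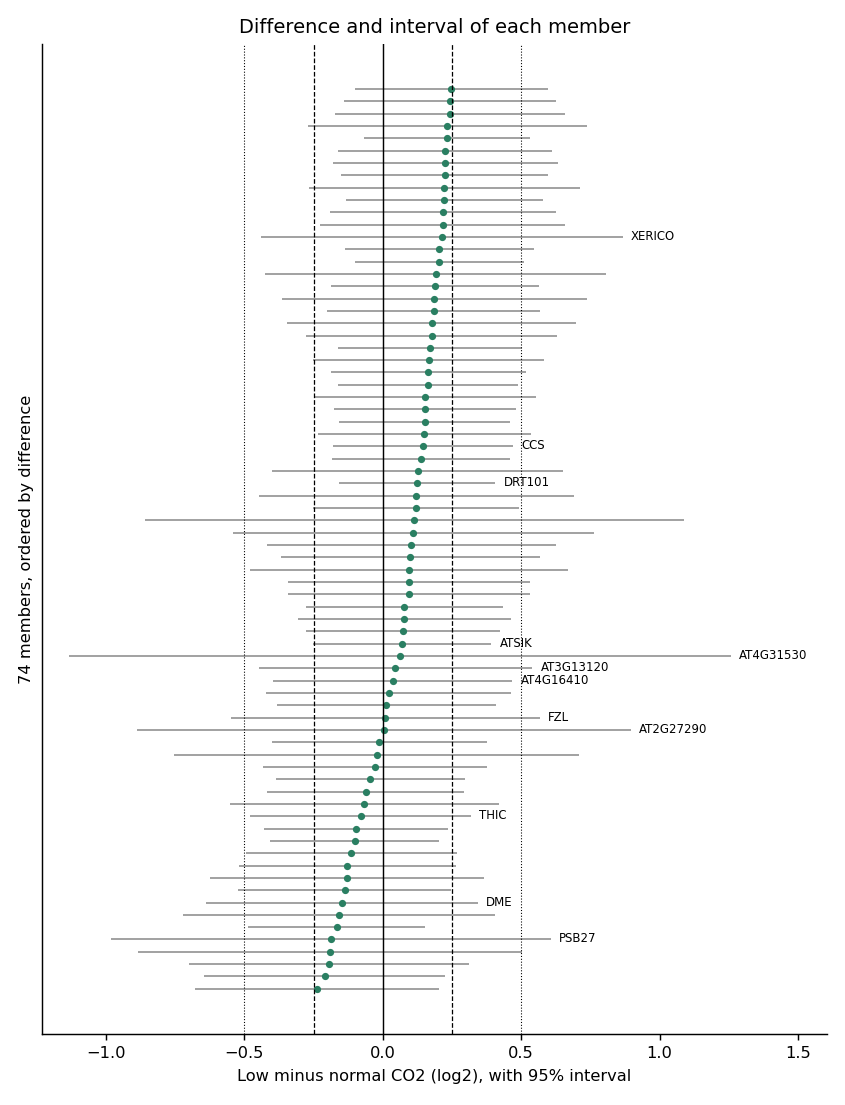
Points are the low minus normal CO2 differences of the 74 members (log2), ordered from lowest to highest, and lines are 95% intervals from limma with n = 5 averaged pairs per group. Dashed lines mark 0.25 and dotted lines 0.5 in either direction; the interval of AT4G31530, which includes a value at the ceiling, is the widest, from -1.13 to 1.26.

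The brightest 3 members had large spreads between averaged pairs. AT4G31530 had levels of 6.19, 7.57, 7.08, 7.41 and 8.23 in normal CO2 and 7.38, 7.59, 7.79, 7.50 and 6.53 in low CO2, in the order of the column numbers. All low CO2 values lay inside the range of the normal CO2 values, and columns 9 and 10 were its highest in normal CO2 and its lowest in low CO2. Its deposited intensity was 41.8 and 43.9 in normal columns 1 and 2, and at the ceiling of the scale in normal columns 9 and 10. The ceiling is the highest deposited value and was read here as a cap. On that reading a value at the ceiling is only a lower bound. AT4G31530 was the 1 member that reached it. Its mean with the ceiling value taken as measured was 7.30 in normal CO2, which is then a lower bound, and its low CO2 mean was 7.36 ± 0.49 (SD, n = 5). On the same reading its difference of 0.06 is an upper bound, and its normal CO2 SD and its interval rest on a value that was not fully measured. Without normal columns 9 and 10 the difference was 0.30.

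AT2G27290 had the smallest difference of all members, 0.0041, with means of 5.97 ± 0.73 and 5.98 ± 0.46 (SD, n = 5). Its averaged pairs nevertheless spanned 5.05 to 6.98 (normal CO2) and 5.28 to 6.34 (low CO2). As in AT4G31530, normal columns 1 and 2 were the lowest and normal columns 9 and 10 the highest. AT3G09850 had means of 6.37 ± 0.74 and 6.48 ± 0.47 (SD, n = 5), with its lowest value, 5.17, again in normal columns 1 and 2.

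AT4G16410, the fourth in brightness, had both a small difference and a small spread after centring. Its deposited intensity was 13.1 in normal column 1 and 6.27 in normal column 10, so the small spread holds for the centred values. Its levels were 4.48, 4.54, 4.28, 4.11 and 4.31 in normal CO2 and 4.33, 4.60, 4.31, 4.33 and 4.32 in low CO2. Its difference was 0.04 ± 0.20 (SE) with an interval of -0.40 to 0.47, and its SDs of 0.17 and 0.13 were among the 4 smallest of the 74 when both groups were pooled. The other members with the smallest joint spread were DRT101, AT1G31790 and AT3G09080. The other bright members ranged widely in spread. AT1G50880 had means of 3.55 ± 0.12 and 3.78 ± 0.21, AT4G19900 had 3.72 ± 0.67 and 3.83 ± 0.38, AT4G35660 had 3.73 ± 0.79 and 3.54 ± 0.29, and AT2G33180 had 3.69 ± 0.43 and 3.53 ± 0.46 (SD, n = 5). AT3G13150, second to PSB27 in joint spread, had means of 2.85 ± 0.56 and 2.83 ± 0.75 (SD, n = 5), and its low CO2 values alone ran from 1.98 to 4.03.

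Among the named chloroplast genes, FZL had the closest means, at 2.59 ± 0.64 in normal and 2.60 ± 0.21 in low CO2 (SD, n = 5). Its normal CO2 values were 1.70, 2.58, 2.42, 2.80 and 3.45, and its low CO2 values were 2.43, 2.36, 2.79, 2.83 and 2.59. All 5 low CO2 values lay inside the range of the normal CO2 values. THIC had values of 0.83, 1.29, 1.04, 1.18 and 1.41 in normal CO2 and 0.96, 1.61, 1.18, 0.97 and 0.64 in low CO2. Its highest and its lowest value were both in low CO2, and its difference was -0.08 ± 0.19 (SE). PSB27 had the widest joint spread of all members and is described further on.

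CCS, the copper chaperone, had values of 1.63, 1.84, 1.81, 1.73 and 1.53 in normal CO2 and 1.50, 1.81, 1.86, 2.12 and 1.99 in low CO2. Of the 5 low CO2 values, 1 lay inside the range of the normal CO2 values, 3 above it and 1 below it. The difference was 0.14 ± 0.15 (SE) with an interval of -0.18 to 0.47. XERICO varied more between averaged pairs. Its values were 2.09, 2.40, 2.73, 3.52 and 3.74 in normal CO2 and 3.07, 3.47, 3.49, 2.93 and 2.58 in low CO2, its difference was 0.21 ± 0.31 (SE), and its interval ran from -0.44 to 0.87. All 5 low CO2 values of XERICO fell between its lowest and highest normal CO2 values.

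DRT101 had the smallest joint spread of the 74. Its values were 1.12, 1.32, 1.06, 0.96 and 1.02 in normal CO2 and 1.20, 1.20, 1.31, 1.18 and 1.21 in low CO2, with SDs of 0.14 and 0.05 and a difference of 0.12 ± 0.13 (SE). ATSIK had means of 2.15 ± 0.16 and 2.22 ± 0.17 (SD, n = 5) and a difference of 0.07 ± 0.15 (SE). DME had values of 2.02, 1.50, 1.63, 1.57 and 1.43 in normal CO2 and 1.42, 0.75, 1.69, 1.34 and 2.21 in low CO2. Its low CO2 values spread on both sides of the normal CO2 range, and its difference was -0.15 ± 0.23 (SE).

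**Figure D3:**
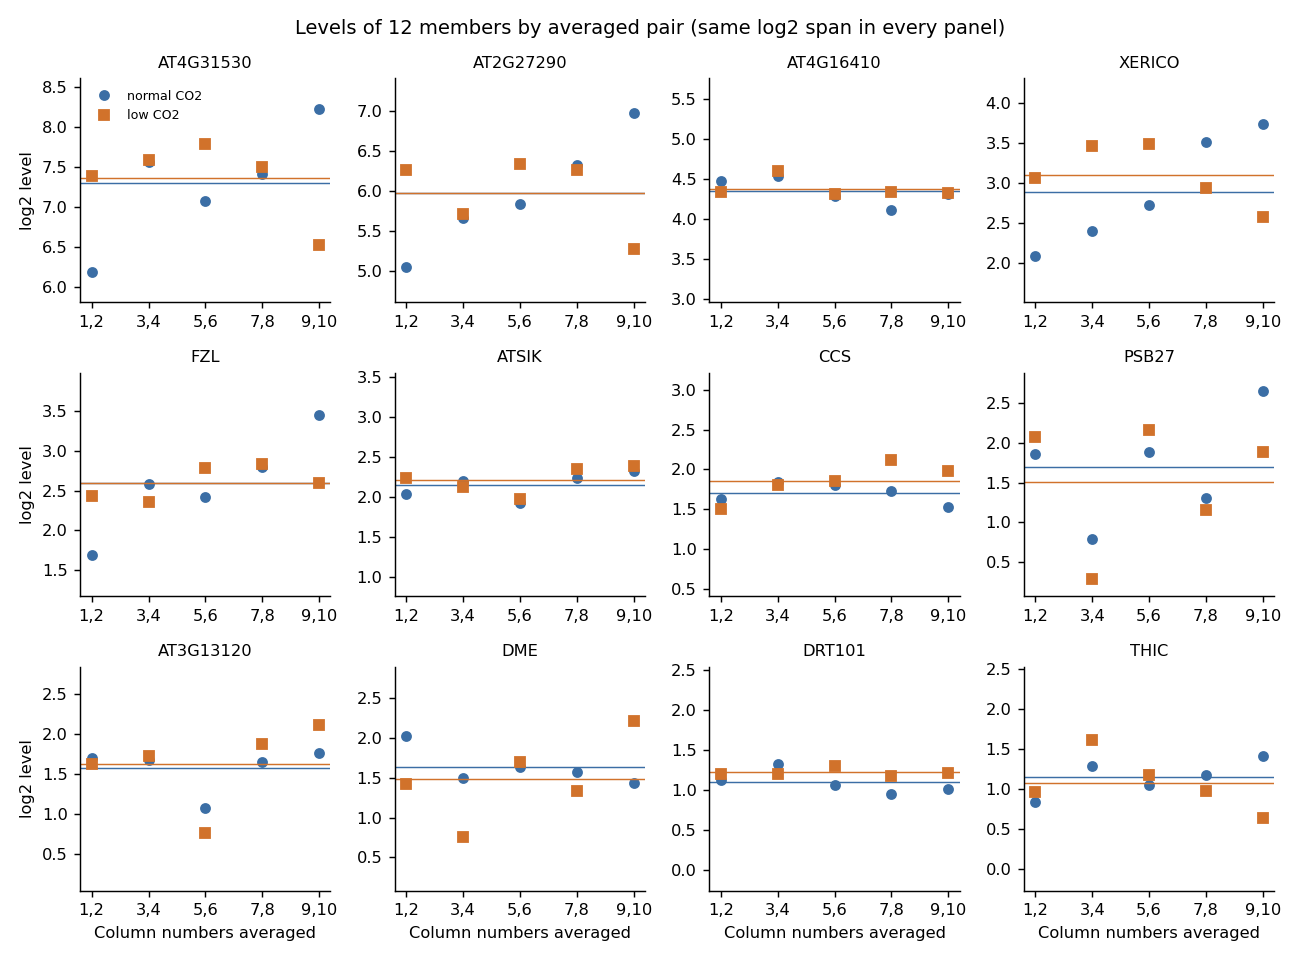
Each panel shows the log2 level of 1 member (relative to the column median) for the 5 averaged pairs of normal CO2 (circles) and low CO2 (squares), with lines at the group means; the horizontal axis gives the averaged column numbers. On this centred scale ATSIK, DRT101 and AT4G16410 stay within a narrow band. AT4G31530 and AT2G27290 are lowest in normal columns 1 and 2, and PSB27 drops at the same column numbers in both groups.

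The rule used the group means and not the spread within a group, so a change in spread between the groups could be tested. The size of the spread beside that of other probes is a description. A limit on the difference and on brightness favours probes with a small spread. The SD between averaged pairs had a median of 0.27 in normal and 0.30 in low CO2 over the members, against 0.28 and 0.40 in the other bright 1-gene probes and 0.33 and 0.36 over all tested probes. Single members ranged from 0.09 to 0.79 (normal CO2) and from 0.04 to 0.78 (low CO2). limma on the deviations from the group mean called 0 of 3277 probes at an adjusted p of 0.05 (0%), and thus 0 of the 74 members. At an unadjusted p under 0.05, 8 members (10.8%) and 352 probes (10.7%) were counted, so the members' share was close to the background. The spread was smaller in low CO2 in 35 members and larger in 39.

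The members with the smallest p in the spread test were named after their values were seen, and none passed. AT2G44760 lay between 1.67 and 2.33 in normal CO2 but between 1.90 and 1.99 in low CO2, with SDs of 0.29 and 0.042 and limma's adjusted p = 0.25. AT5G42680 had SDs of 0.36 and 0.065 (limma's adjusted p = 0.257). AT4G18180 showed the reverse order, with values between 1.76 and 2.06 in normal CO2 and of 2.21, 2.29, 2.26, 1.26 and 1.21 in low CO2. Its group means were 1.92 and 1.85, while its low CO2 pairs lay on both sides of the normal CO2 range (SDs 0.12 and 0.56, limma's adjusted p = 0.257). Over 15 alternatives limma's adjusted p ran from 0.117 to 0.852 in AT2G44760 and from 0.183 to 0.828 in AT5G42680. In AT4G18180 it ran from 0.0573 to 0.752. The highest came after quantile normalization for AT2G44760 and without centring for AT5G42680 and AT4G18180.

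**Figure D4:**
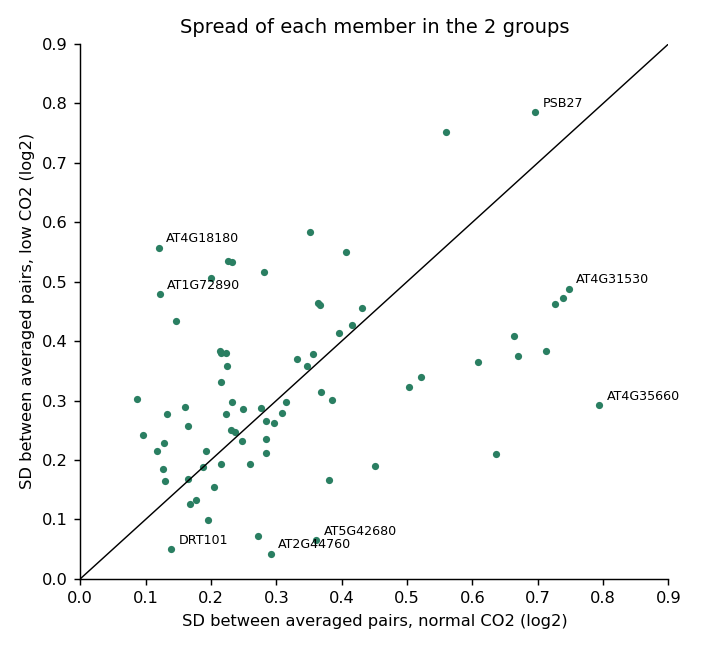
Each point is 1 of the 74 members, with its SD between the 5 averaged pairs of normal CO2 on the horizontal axis and of low CO2 on the vertical axis (log2), and the line marks equal SDs. Points lie on both sides of the line, with 35 members smaller and 39 larger in low CO2 by the deviations tested.

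Whether columns of the same number in normal and low CO2 moved together was tested over all probes. The test asked which probes varied with the column number in both groups alike, after removal of the group difference. limma's moderated F-test called 24 of 3135 probes (0.766%) at an adjusted p of 0.05, and 0 of the 74 members. At an unadjusted p under 0.05 it counted 8 members (10.8%), against 10.7% of all probes, so the members' share was close to the background. PSB27 had the smallest p among the members and missed the threshold (limma's adjusted p = 0.0658).

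PSB27 had averaged levels of 1.86, 0.79, 1.89, 1.31 and 2.65 in normal CO2 and 2.07, 0.30, 2.15, 1.16 and 1.89 in low CO2. It was low at columns 3 and 4 and at columns 7 and 8 in both groups. The drop at columns 7 and 8 came from column 8. The deposited intensities were 2.01 in normal column 7 and 2.04 in low column 7, against 0.525 in normal column 8 and 0.557 in low column 8. At columns 3 and 4 they were 0.894 and 0.730 in normal CO2 and 0.853 and 0.402 in low CO2, while the remaining 14 columns lay between 1.64 and 2.48. Over the 10 column numbers the normal and low CO2 levels of PSB27 correlated at r = 0.86, and at 0.81 without column 8. This is a description over columns of which neighbours deviate together.

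The PSB27 call depended on the treatment of the columns. limma's adjusted p was 0.00162 with 20 separate columns, where neighbours count as independent. PSB27 passed in 4 of 9 alternatives: the other three used averaged pairs, after quantile normalization, without centring and without columns 9 and 10 of both groups. The highest adjusted p from limma was 0.652, without columns 3 and 4 of both groups, where PSB27 was low. The low minus normal difference by column number ran from -0.89 to 0.35 and was below 0 in 6 of the 10 numbers. What same-numbered columns share is not stated in the labels and was not tested.

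AT3G13120 had a similar pattern at other columns. Its levels were 1.70, 1.68, 1.08, 1.66 and 1.76 in normal CO2 and 1.62, 1.73, 0.76, 1.87 and 2.12 in low CO2, lowest at columns 5 and 6 in both groups. Its correlation over the 10 column numbers was 0.92, the highest of the 74, and it did not pass the F-test (limma's adjusted p = 0.314). AT3G52550 had the opposite pattern, with r = -0.95. Over the members the correlation had a median of 0.27 and exceeded 0.5 in 21 of 74 (28.4%), against 25.1% of the 2941 probes with values in all 20 columns. It was under -0.5 in 11 members (14.9%), against 8.3% of those probes.

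The members' position in single columns depended on how the columns were scaled. After centring, normal columns 1 and 2 held the lowest of the 5 normal CO2 values in 39 of the 74 members, and normal columns 9 and 10 the highest in 34. The median member deviated from its group mean by -0.25 in the former and by 0.19 in the latter. Those columns had the highest and the lowest median over all probes before centring, -0.77 and -1.59. Leaving out the centring shifts all genes of a column by the same amount, so the following values restate those medians. Without centring columns 1 and 2 held the highest value in 34 members, columns 9 and 10 the lowest in 41, and the median deviations were 0.14 and -0.25. After quantile normalization they were -0.10 and -0.02. In low CO2 the median deviations were smaller, from -0.10 to 0.08 after centring.

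**Figure D5:**
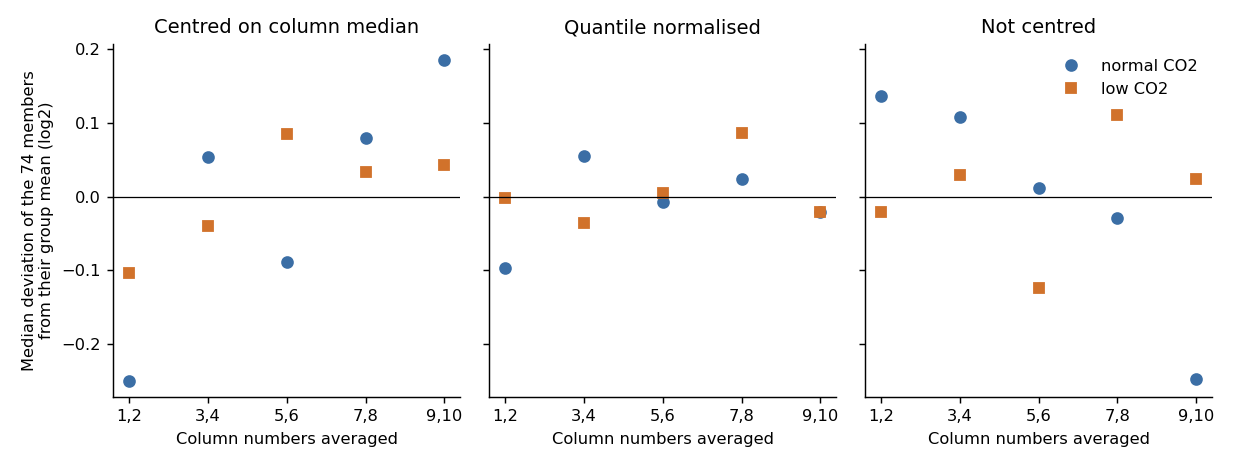
Points give the median deviation of the 74 members from their own group mean (log2) in each averaged pair of normal CO2 (circles) and low CO2 (squares), under 3 scalings of the columns. Normal columns 1 and 2 lie at -0.25 when columns are centred and at 0.14 when they are not, and normal columns 9 and 10 move the other way, from 0.19 to -0.25.

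The count of members above 0 differed between scalings and samples left out. The members' median difference was 0.11, with 53 of 74 above 0, against a median of 0.01 over all tested probes. It was 0.05 with 47 above 0 after quantile normalization, and 0.12 with 54 above 0 without centring. The other bright 1-gene probes had 62 of 87 above 0 (71.3%), close to the members' 71.6%. Over all tested probes the share was 51.3%, and over the tested 1-gene probes it was 56.1%. The rule limited the members' differences, so their share is a description. Without normal columns 1 and 2 the members' median fell to 0.03, with 42 above 0.

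Membership depended on single pairs of columns for 44 of the members. Leaving out each of the 10 averaged pairs in turn, 30 of the 74 members stayed inside the limit of 0.25 in every case and 44 went past it at least once, the farthest to 0.43 (XERICO). The number past the limit was smallest without normal columns 5 and 6 (1 member) and largest, at 17, without normal columns 7 and 8 and without low columns 1 and 2. The sign of the difference changed in 30 members. Across 15 repeats of the selection that kept its limits, with another scaling, another treatment of zeros or neighbouring columns, or 1 pair left out, 26 members were selected every time. Of the members with a gene name these were ATSIK, CCS and FZL, and of the others described above AT4G16410, AT3G09080, AT2G44760, AT5G42680 and AT4G18180. AT4G20690, next to the brightness limit, was selected in 5 of 15.

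Neighbouring columns gave close values for nearly all members, as they did for the other bright probes. The SD within averaged pairs had a median of 0.094 over the members, 0.090 over the other bright 1-gene probes and 0.178 over all tested probes. It was below the spread between averaged pairs in 73 of 74 members and in 86 of the 87 other bright probes. The exception was AT1G31790. The largest SD within pairs was that of PSB27, 0.67, followed by AT4G35660 at 0.29. No member had a value of 0 in any column. Together the members took 6.42% to 8.73% of a column's total intensity (normal CO2) and 6.67% to 8.80% (low CO2). Without AT4G31530 the shares were 5.27% to 6.38% and 5.61% to 6.42% in the same order.

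Members were spread over the array's probe numbers. By the remainder of the probe number divided by 6, they fell into the 6 classes at 4.05% to 24.3%, beside 6.71% to 19.4% of all tested probes. The class leaving 2 held the most members, 18 (24.3%), beside 19.4% of the tested probes. The class leaving 0 held the fewest, 3 (4.05%), beside 6.71% of the tested probes. In the TAIR10.1 gene order the closest members were AT3G13120 and AT3G13150, 3 genes apart, whose deviations from the group means correlated at r = -0.57 over the 10 averaged pairs. AT3G26580 and AT3G26630 were 10 genes apart and their probe numbers differed by 12; their deviations correlated at r = 0.73. Between all pairs of members the correlation had a median of 0.14, and between pairs of the other bright 1-gene probes it was 0.14 as well. These points share columns and scaling, and the values are a description.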

How the data were processed

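Transcript levels were measured on an array in 20 samples, 10 per group. The authors deposited linear intensity values, read here as such from the file. How they were scaled or corrected for background is not given in the sources used. The members and lists were chosen with earlier results of these data known. The deposited values above 0 were converted to log2, zeros were taken as missing, and each column was centred on its median. Neighbouring column numbers were averaged within a group. Tests used limma 3.58.1 under R 4.3.3 (lmFit, then eBayes with trend) on probes measured in 3 or more averaged pairs of each group. p-values were adjusted by Benjamini-Hochberg across the whole table, and 0.05 was the threshold. The spread test used absolute deviations from the group mean, multiplied by the square root of n/(n-1). The number test was a moderated F-test of the averaged numbers with the group in the fit, on probes with a value in all averaged pairs. The code was tested on simulated data.

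Members described singly were the 8 brightest, the 4 with the smallest and the 4 with the largest spread, up to 6 with an averaged pair far from the others, those next to a limit, and any past the threshold of the spread or number test. The 8 with a gene name in the reference, and the leading members of the spread test, were added after the values were seen. 11 keyword groups of gene functions were to supply further names, but the reference holds few descriptions and only 3 members matched a group. Names and locus codes are those of TAIR10.1, to which all 74 members matched. No sequence was used here. Alternatives were other scalings, other treatments of repeats and zeros, a filter on dim probes, eBayes without a trend, other limits of the selection, and removal of each averaged pair.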

Additional observations from a re-analysis of the deposited data

Results flagged for a closer look

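In 11 of the 148 groups of 5 averaged pairs (74 members in both CO2 levels), 1 pair lay far from the other 4. Chance alone gives about 1 in 20, or 7.4 groups. The 7 among singly described members are given as values. Group means are given ± SD, with n = 5. AT4G05070 was at 2.40 in normal columns 9 and 10 (group mean 2.79 ± 0.22). AT3G13120 was at 1.08 in normal columns 5 and 6 (group mean 1.58 ± 0.28), where its low CO2 level was also its lowest. AT1G73470 was at 0.50 in normal columns 1 and 2 (group mean 0.99 ± 0.27), whose column median was the highest. Its deposited intensities there, 0.872 and 0.792, lay inside the 0.662 to 1.09 of its other normal columns, so the distance holds for the centred values. AT4G16410 was at 4.60 in low columns 3 and 4 (group mean 4.38 ± 0.13), and its normal CO2 level was likewise highest at those numbers. AT3G09080 was at 1.43 in low columns 9 and 10 (group mean 1.60 ± 0.10), AT5G52810 at 1.94 in low columns 5 and 6 (group mean 1.27 ± 0.38), and DRT101 at 1.31 in low columns 5 and 6 (group mean 1.22 ± 0.05).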

How the results depend on the processing

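For the changes below, the cause was not tested unless given. The 69 probes called between the groups became 589 with 20 separate columns, which counts neighbours as independent samples, 186 with neighbouring numbers as a random block (correlation 0.748) and 34 with eBayes without a trend. Leaving out 1 averaged pair gave 25 to 124. It was 124 without normal columns 1 and 2, 32 without 3 and 4, 25 without 5 and 6, 26 without 7 and 8 and 26 without 9 and 10, and 25, 43 and 36 without low columns 3 and 4, 7 and 8, and 9 and 10. No member was called in any of these fits. Whether the replicate number pairs the samples is unsettled: pairing was taken as shown only with every correlation above 0.1, and averaged pairs of the same number correlated across the groups at -0.02 to 0.40, above 0.1 and best with their own number in 3 of 5, a hint from the data and not the design. With the number as a replicate block, 89 probes were called between the groups and 2 in the spread test, with 0 members in either. The spread test also called 2 probes after quantile normalization and 0 to 2 with 1 pair left out. With 20 separate columns the number test called 108 of the 2941 probes with values in all 20 columns, and 3 of the 74 members. That fit counts neighbours as independent samples, and nothing is read from the member count. Without a trend the number test called 12 probes, in place of 24. With 1 number left out it called 7 (without columns 1 and 2) to 60 (without columns 9 and 10), and 12 without columns 7 and 8. The selection gave 38 members with a limit of 0.15, by its construction, and 60 to 86 with 1 pair left out; 71 without centring and 85 after quantile normalization shared 70 and 69 with the 74. In 442 refits the differences of the 26 singly described members moved by less than 1 SD between averaged pairs. Most of these refits could not have moved them that far. Leaving out 1 of 5 pairs shifts a group mean by less than that. Other treatments of repeats and eBayes without a trend leave the differences of these members unchanged. Nothing is read from this count.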

Other observations

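Some members deviated from their group means in nearly the same way over the 10 averaged pairs. These pairs of genes were picked as the highest of 2701 correlations, and they are given as values. AT3G04650 and AT5G52530 reached r = 0.96, AT4G32060 and AT3G26580 r = 0.96, AT3G44570 and AT5G52530 r = 0.95, and AT1G68660 and AT1G33250 r = 0.94. XERICO was closest to AT2G39360, at r = 0.93. The probe numbers of AT4G32060 and AT3G26580 differed by 17, and those of the other pairs named here by at least 1042.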
